A study of Mus musculus with 2 samples.

Results

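The Prdm genes code for zinc finger proteins with a PR domain, a relative of the SET domain of histone methyltransferases. Of the 15 genes of the family considered in the mouse, 9 are described here in depth, out of 21631 protein-coding genes on the chromosomes that carry peaks. They are Prdm1, Prdm6, Prdm8, Prdm12, Prdm13, Prdm14 and Prdm16, called lineage factors here, and Prdm2 and Prdm4, called other members. The label is loose, since Prdm1 and Prdm16 act in several lineages. Mecom, a factor of blood stem cells with a peak, and Prdm9, a germ cell factor without one, were left outside the 9 genes. A Suz12 peak was assigned to a gene when it overlapped the gene or lay within 2.5 kb of either of its outer ends in RefSeq, build GRCm38. The genes were selected on the presence, number, width and position of these peaks in the same library, so the counts over them are a description and carry no test.

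Suz12 was mapped by chromatin immunoprecipitation and sequencing in wild-type E14 cells, a mouse embryonic stem cell line, cultured in serum. To differentiate them, leukemia inhibitory factor, which keeps these cells in the stem cell state, was withdrawn and all-trans-retinoic acid added at 1 µM, and the cells were taken after 72 h. The labels also hold a library of Suz12 knockout (Suz12-/-) cells at 0 h, made with the same antibody, which was not analysed here. With 1 library analysed there is no replicate error, no comparison between groups and no p-value. No control library and no undifferentiated wild-type library was used here, so the peaks describe occupancy at 72 h and not a change.

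Suz12 is a core subunit of Polycomb Repressive Complex 2, which methylates a lysine of histone H3 at genes that are kept silent. In embryonic stem cells this complex sits mainly at CpG-rich starts of developmental regulators. Many Prdm proteins act themselves as transcriptional repressors that switch a cell from one fate to another, often by recruiting other enzymes rather than through their own PR domain.

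A Suz12 peak lay at each of the 7 lineage factors and at neither Prdm2 nor Prdm4. The genes were put in these groups with the peaks known, so this split is no test of a tie to lineage. Of the 9 genes, 7 had a peak (77.8%, exact 95% interval 40.0 to 97.2), against 2833 of 21631 protein-coding genes (13.1%). The 9 genes were chosen on these peaks, so the interval measures no sampling error and the difference is no test. Long genes have more room for a peak, and the shortest of the 9 genes spans 10.1 kb. Among the 13832 protein-coding genes at least that long, 14.7% had a peak. The widest peak of each marked gene measured at least 3133 bp (Prdm1) and at most 9905 bp (Prdm12), and the median over the 7 genes was 6564 bp. For all protein-coding genes with a peak this median was 1988 bp.

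The sequences before the starts of 5 lineage factors are shown because each of these windows lay under a Suz12 peak, and they differ widely in the CG dinucleotides that Polycomb targets are known for. RefSeq (GRCm38.p6) windows matched 6 of the 9 genes, and those of Prdm2, Prdm6 and Prdm14 were not used here. Each run holds the 250 bases before the listed start, read 5′ to 3′ on the strand of the gene, with every CG in capitals. The window of Prdm16 lies at chr4:154636874-154637123 (minus strand), that of Prdm1 at chr10:44458749-44458998 (minus strand), that of Prdm8 at chr5:98180619-98180868 (plus strand), that of Prdm12 at chr2:31639787-31640036 (plus strand) and that of Prdm13 at chr4:21685964-21686213 (minus strand). A window of Prdm4, at chr10:85916730-85916979 (minus strand), is added as the contrast, since it holds more CG than any of them and lay under no peak.
Prdm16: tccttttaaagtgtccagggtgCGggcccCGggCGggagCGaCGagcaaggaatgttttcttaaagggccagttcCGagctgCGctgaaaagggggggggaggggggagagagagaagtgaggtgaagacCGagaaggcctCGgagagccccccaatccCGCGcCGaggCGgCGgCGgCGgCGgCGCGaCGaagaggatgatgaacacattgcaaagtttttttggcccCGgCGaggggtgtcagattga
Prdm1: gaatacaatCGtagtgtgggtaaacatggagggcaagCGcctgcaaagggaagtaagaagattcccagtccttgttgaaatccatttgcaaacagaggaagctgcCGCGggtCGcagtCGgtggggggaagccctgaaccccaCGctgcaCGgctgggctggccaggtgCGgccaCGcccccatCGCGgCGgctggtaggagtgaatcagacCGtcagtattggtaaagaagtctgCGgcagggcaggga
Prdm8: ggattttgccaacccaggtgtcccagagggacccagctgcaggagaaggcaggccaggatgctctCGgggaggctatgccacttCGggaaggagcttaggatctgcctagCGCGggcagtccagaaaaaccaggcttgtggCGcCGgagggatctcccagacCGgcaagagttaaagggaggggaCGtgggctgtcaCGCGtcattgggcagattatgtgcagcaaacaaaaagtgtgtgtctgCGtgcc
Prdm12: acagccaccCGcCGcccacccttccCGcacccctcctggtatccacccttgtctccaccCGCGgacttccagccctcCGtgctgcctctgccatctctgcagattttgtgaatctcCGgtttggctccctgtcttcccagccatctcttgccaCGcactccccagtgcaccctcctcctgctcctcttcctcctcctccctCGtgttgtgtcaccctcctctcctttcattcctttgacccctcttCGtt
Prdm13: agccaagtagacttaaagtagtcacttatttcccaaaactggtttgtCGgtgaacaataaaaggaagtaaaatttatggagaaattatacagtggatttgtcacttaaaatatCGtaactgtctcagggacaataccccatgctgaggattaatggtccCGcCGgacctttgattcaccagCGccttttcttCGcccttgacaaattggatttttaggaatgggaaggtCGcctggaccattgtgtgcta
Prdm4: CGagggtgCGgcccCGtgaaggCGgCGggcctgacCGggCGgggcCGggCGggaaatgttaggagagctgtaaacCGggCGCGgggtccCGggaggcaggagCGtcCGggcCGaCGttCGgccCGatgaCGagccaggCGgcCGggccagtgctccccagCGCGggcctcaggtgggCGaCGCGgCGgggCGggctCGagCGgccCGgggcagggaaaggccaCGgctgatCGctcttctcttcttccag

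Among the neural members, Prdm8 had the most peaks of the family and Prdm12 the widest. Prdm8 is a repressor of developing neurons that works with the factor Bhlhe22 in the forebrain. The gene, chromosome 5 from 98167203 to 98187454, had 4 peaks, a number that 37 of the 2833 genes with a peak (1.31%) reached or passed. Its main peak, from 98179539 to 98187090, was 7552 bp wide with a score of 3230, the second highest of the 3373 peaks. The score is the authors' own value per peak, its scale is not stated in the file, and 325 peaks share the value 3100, so the order among the top scores says little. This peak lay wholly inside the gene, reached from 1330 bp before to 6221 bp after the listed start, and covered the start window printed above.

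The other peaks of Prdm8 were smaller. A pair of 1072 bp (score 252) and 2707 bp (score 768) lay at the low-coordinate end, 438 bp apart, and their nearer edge was 9809 bp before the listed start. A peak of 1395 bp (score 375) lay 1501 bp beyond the high-coordinate end. Peaks stood at both ends of Prdm8, and together they covered 54.2% of the gene. Joining peaks within 3 kb gave a domain of 10812 bp over the main peak and the downstream one, wider than 97.2% of the 2990 domains of the library.

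Prdm12 is needed for the development of pain-sensing neurons and is expressed in the embryonic spinal cord. Its main peak spanned 9905 bp on chromosome 2 from 31633658 to 31643562 with score 3100. Of all 3373 peaks, 98.7% were narrower. The peak covered the low-coordinate end of the gene, from 6379 bp before to 3525 bp after the listed start. A second peak of 2011 bp, with score 1451, lay just inside the other end, 10010 bp away. Between them the peaks covered 50.8% of this 20.8 kb gene.

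Prdm13 acts with the bHLH factor Ptf1a in the dorsal spinal cord, where it favours inhibitory over excitatory neurons. Its peak of 6564 bp (score 3100), on chromosome 4 from 21684112 to 21690675, reached 4712 bp before the listed start and 1851 bp into the gene. A second peak of 3013 bp, with score 2402, lay inside the gene, 5367 to 8379 bp after the start. The 2 peaks were separated by 3515 bp and covered 48.2% of the gene. In Prdm8, Prdm12 and Prdm13 peaks covered between 48.2% and 54.2% of the gene body, which is short in all of them (10.1 to 20.8 kb).

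**Figure D1:**
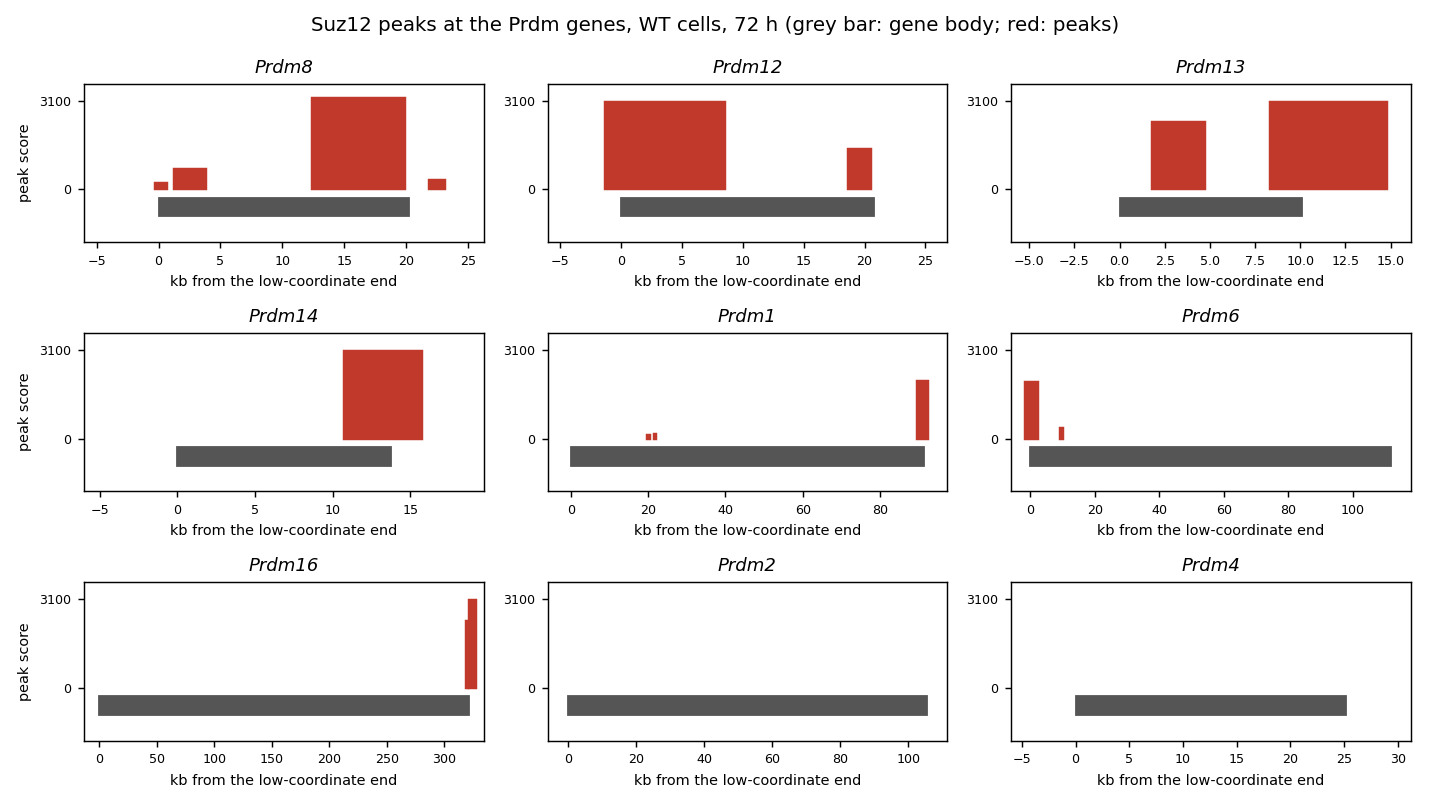
Suz12 peaks along the 9 Prdm genes. Each panel has its own axis in kb from the low-coordinate end of the gene, the grey bar is the gene body, and each red box spans a peak with a height equal to its deposited score. Peaks lie at an end of each of the 7 lineage factors, and the panels of Prdm2 and Prdm4 are empty.

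The germ cell factors Prdm14 and Prdm1 differed from each other in the form of their peaks. Prdm14 supports the pluripotent state and primordial germ cells. It had a single peak, 5147 bp on chromosome 1 from 13124070 to 13129216 with score 3100, which covered the high-coordinate end of the gene. Of its length, 3094 bp lay in the gene and 2053 bp beyond it. The peak covered 22.5% of the gene.

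Prdm1, also called Blimp1, specifies germ cells together with Prdm14 and drives B cells to become plasma cells. It had 3 peaks and the narrowest best peak of the 7 marked genes. The strongest, 3133 bp with score 2063 on chromosome 10 from 44526587 to 44529719, covered the high-coordinate end. This end lies far from the start that RefSeq lists in the promoter table, since the nearer edge of the peak was 67839 bp before that start. The listed start itself lay under a peak of only 837 bp with score 183, narrower than all but 1.63% of peaks. A further peak of 1114 bp (score 153) began 1098 bp after it. Scores in this list begin at 150.3, so the 2 inner peaks of Prdm1 lie close to the authors' threshold. The gene table does not separate transcripts, and which starts are used in these cells was not analysed here.

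Prdm6 and Prdm16 act in mesodermal tissues, and Prdm16 also in neural stem cells. Prdm6 is a repressor of smooth muscle cells. Its peak of 4412 bp (score 2022), on chromosome 18 from 53461874 to 53466285, covered the low-coordinate end, with 2331 bp inside the gene. A peak of 1394 bp with score 389 lay inside the gene, 6489 bp further on. Peaks covered 3.33% of this 112.0 kb gene.

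Prdm16 sets the identity of brown fat cells and maintains blood and neural stem cells. It had 2 peaks that almost touched, with 8 bp between them, at the high-coordinate end of a 321.2 kb gene. The outer one was 6755 bp wide (score 3100), on chromosome 4 from 154636578 to 154643332, and reached from 6459 bp before to 295 bp after the listed start. The inner one was 2920 bp wide with score 2389 and lay 304 to 3223 bp after the start. Joined, they formed a domain of 9683 bp, wider than 96.4% of domains. The lncRNA genes Prdm16os and 5930403L14Rik lie within 2.5 kb of both peaks, so the signal there cannot be given to Prdm16 alone.

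Prdm2, known as Riz, is a histone methyltransferase that binds the retinoblastoma protein, and Prdm4 acts downstream of neurotrophin signalling. Neither had a peak at any distance tried, up to 5 kb. The nearest peak lay 136.4 kb from Prdm2 and 503.0 kb from Prdm4. At each marked gene the main peak overlapped the gene itself, and the only peak counted through the margin of 2.5 kb was the one 1501 bp beyond Prdm8. A gene without a peak may still hold Suz12 below the authors' threshold, since the list gives no reads and the depth is unknown.

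Across the 7 marked genes there were 16 peaks, of which 13 lay within 2.5 kb of a gene end and 3 inside a gene and farther from its ends. The same share over all listed peaks is not given here, so whether 13 of 16 is unusual cannot be said. Wholly inside a gene, at whatever distance from its ends, lay 8 of the 16. By the midpoint of the peak, 8 of the 16 were at an end. A peak covered an outer end in 7 of the 7 genes, against 64.1% of all protein-coding genes with a peak. At Prdm8 only the weak peak of 1072 bp (score 252) did so, and its main peak covered no outer end. Prdm8, Prdm12 and Prdm13 had peaks at both ends, and the other 4 at one end only, with no share over all genes to set beside this. These 3 genes are short, so more of each lies within 2.5 kb of an end. By the midpoint, the main peak of Prdm12 and the inner peak of Prdm13 were interior, and only Prdm8 had peaks at both ends. Of the 7 genes, 6 had more than 1 peak, against 16.8% of protein-coding genes with a peak. A best score of at least 3100 was found at 5 of them, against 13.0%. These shares describe genes that were chosen for their peaks. The 6 genes include Prdm16, whose 2 peaks lay 8 bp apart and were joined into a domain. They also include Prdm1 and Prdm6, which kept 1 peak each with scores at or above the median. The background share at that setting is not given here.

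**Figure D2:**
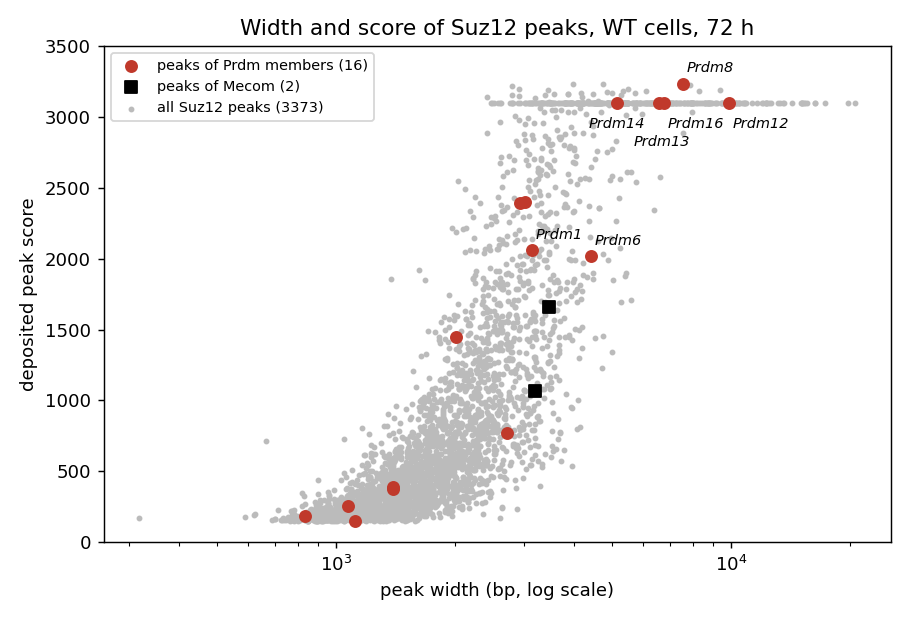
Width (bp, log scale) and deposited score of each of the 3373 Suz12 peaks in grey, with the 16 peaks of the Prdm members in red and the 2 peaks of Mecom as black squares. The widest peaks of Prdm8, Prdm12, Prdm13, Prdm14 and Prdm16 lie at or above the shared score of 3100, and those of Prdm1 and Prdm6 at 2063 and 2022.

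The peaks of a gene were of unequal size. The median width of the 16 peaks was 2966.5 bp (837 to 9905), against 1849 bp for the whole list. Their scores ran from 153 to 3230, and 5 of them, 2 at Prdm1, 2 at Prdm8 and 1 at Prdm6, lay below the list's median of 572. At these 3 genes a main peak was accompanied by weak ones, while each peak of Prdm12, Prdm13, Prdm14 and Prdm16 scored above that median.

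None of the 16 peaks (0) lay within 2.5 kb of another protein-coding gene, and the same share over all listed peaks is not given here. Of the 18 protein-coding genes that flank the 9 members, 3 had a peak (16.7%, near the 13.1% of all protein-coding genes), namely Antxr2 and Fgf5 on the sides of Prdm8 and Slco5a1 beside Prdm14. Beyond the windows of the marked genes, the next peak was 66.2 kb away at the nearest, on the Fgf5 side of Prdm8, and 3348.5 kb at the farthest, beside Prdm6. Apart from the lncRNA genes at Prdm16, the only other gene within 2.5 kb of a member peak was the lncRNA gene A730035I17Rik. It lies at the main peak of Prdm8, so the signal of that peak cannot be given to Prdm8 alone.

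Of 6 further genes, 1 (16.7%, exact 95% interval 0.421 to 64.1) had a peak, a share near the 13.1% of all protein-coding genes. This was Mecom, or Prdm3, a factor of blood stem cells and the closest relative of Prdm16. It had 2 peaks of 3184 bp (score 1065) and 3458 bp (score 1658), 50 bp apart, at the high-coordinate end. Prdm16 and Mecom each carried a pair of nearly touching peaks at one end. At Prdm16 these 2 peaks made up the whole domain of 9683 bp, while the domain of 9866 bp at Mecom held 3 peaks, one of them outside the window of the gene.

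The family genes without a peak were Prdm9, Prdm10, Prdm11, Prdm15 and Zfp408, also listed as Prdm17. Prdm9 sets the sites of meiotic recombination in germ cells, and its nearest peak was 6042 bp away. For the other 4 the nearest peak was between 27.1 kb (Prdm15) and 271.6 kb (Zfp408) away. Over all 15 family genes, 8 had a peak and 7 had none.

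**Figure D3:**
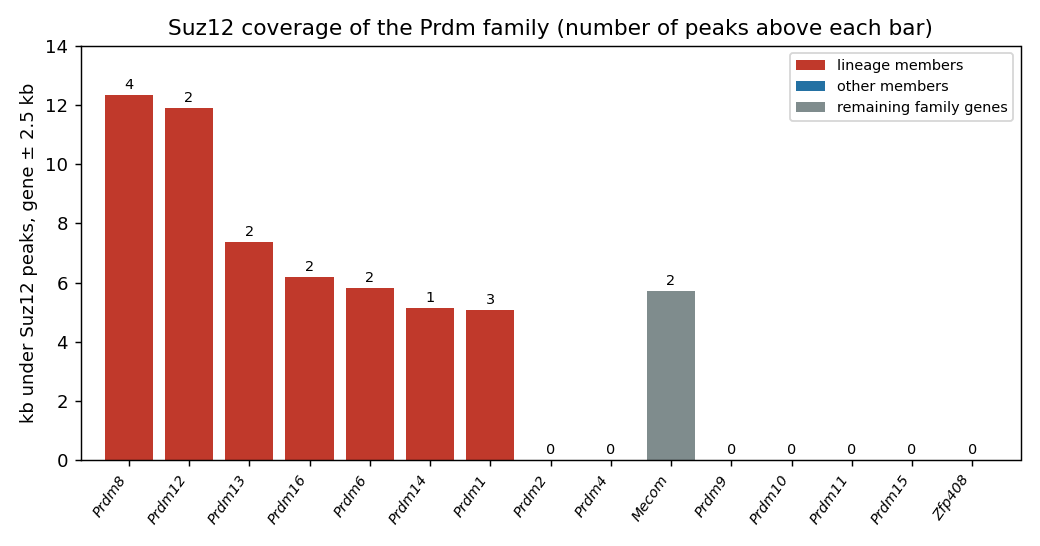
Length under Suz12 peaks (kb) in each of the 15 Prdm family genes and 2.5 kb on either side, with the number of peaks above each bar. Prdm8 (12330 bp) and Prdm12 (11916 bp) have the most, Prdm1 (5084 bp) the least of the 7 lineage members, and Mecom (5723 bp) is the only marked gene among the other 8.

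The CG content before the listed starts did not sort the family by its peaks. The listed starts of Prdm1, Prdm8 and Prdm12 lie inside the gene, more than 2.5 kb from its outer ends. Those of Prdm13, Prdm16 and Prdm4 lie within 2.5 kb of an outer end, so the windows compared differ in place too. Windows under a peak had a median of 17 CG over all protein-coding genes (quartiles 10 to 24, 1707 windows), against 9 (quartiles 3 to 18, 19330 windows) without one. Of all 21037 windows, 8.11% lay under a peak, and so did 5 of the 5 windows of lineage factors. These genes were chosen for their peaks, so the difference is no test. The window of Prdm1 counts only through its peak of 837 bp, whose score of 183 is below double the lowest score (300.67). The printed runs held 22 CG at Prdm16, 15 at Prdm1, 11 at Prdm8, 10 at Prdm12 and 7 at Prdm13. Only that of Prdm16 exceeded the median of windows under a peak, and 3 of the 5 exceeded the median of all windows, 10. The widest peak of the family, at Prdm12, lay over a window of ordinary CG count.

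Among the 12 family genes with a listed window, the windows richest in CG belonged to genes without a Suz12 peak. The printed window of Prdm4 held 34 CG, more than 95.5% of all windows, and its other window, before another listed start, held 24. Those of Prdm11 (32 CG) and Prdm15 (30 and 15 CG) also lay under no peak. Over all genes the share of windows under a peak increased with the count, with 1.41% at 0 to 4 CG, 7.67% at 5 to 9, 11.6% at 10 to 19, 12.8% at 20 to 29 and 15.9% (exact 95% interval 14.2 to 17.8) at 30 or more. Most windows with 30 or more CG, like that of Prdm4, had no peak. These windows hold only the bases next to one listed start, and CpG-rich sequence further off was not analysed here.

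**Figure D4:**
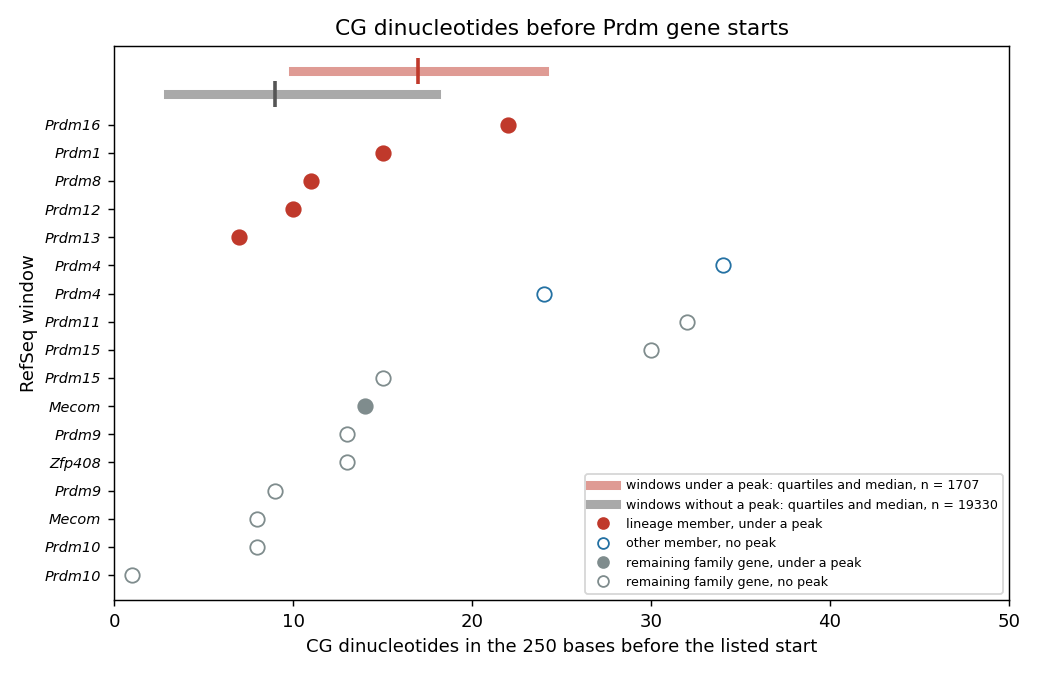
Number of CG dinucleotides in the 250 bases before each listed start of the Prdm family, filled where the window lay under a Suz12 peak and open where it did not. The bars at the top give the quartiles and median (tick) of all windows under a peak and of all windows without one; the windows of lineage factors run from 7 to 22 CG, and the open circles of Prdm4, Prdm11 and Prdm15 reach 34, 32 and 30.

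Short motifs gave no common feature of the 5 windows. GGGCGG, the core of the binding motif of Sp1, was searched on both strands and stood in 2 of the 5, those of Prdm12 and Prdm16, against 43.1% of all windows and 66.7% of those under a peak. TATAAA, the TATA box, was searched in the same way and stood in 0 of the 5. It stood in 11.7% of all windows and 6.74% of those under a peak. At shares this low, 0 of 5 says little. The letters of each motif were matched without regard to overlap with the other.

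Genes that work with Prdm proteins or lie in their pathways were looked at in the same way. Of 21 partner and pathway genes, 9 had a peak (42.9%, exact 95% interval 21.8 to 66.0), against 13.1% of protein-coding genes. The list was chosen with earlier results of these data known, so the interval measures no sampling error and the difference is no test. With Prdm8 and Prdm13 act Bhlhe22 (2356 bp, score 1325) and Ptf1a (3083 bp, score 3100). Of the genes of sensory and spinal neurons, Tlx3 had a peak of 7884 bp over the whole gene and Tlx1 a widest peak of 6621 bp.

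Among partners in other lineages, the germ cell factor Tfap2c had a peak of 7046 bp with score 3100. Pax5, which Prdm1 represses in B cells, had 3 peaks, the widest of 5205 bp, and Irf4, of the same lineage, had one of 2248 bp. Of the brown fat genes, Ebf2 had a widest peak of 6856 bp and Ppargc1a one of 4535 bp, both with score 3100. The peak of Ppargc1a lay at the high-coordinate end, its nearer edge 544233 bp before the start that RefSeq lists. Other genes, none of them protein-coding, lie within 2.5 kb of peaks of Ptf1a, Pax5 and Ebf2, so the signal there cannot be given to these genes alone. The 12 genes without a peak were the corepressor and enzyme genes Cbfa2t2, Ctbp1, Ctbp2, Ehmt1, Ehmt2, Prmt5 and Rb1, and Nanos3, Dppa3, Bach2, Myc and Cebpb.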

How the data were processed

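Suz12 chromatin immunoprecipitation was sequenced by the authors, and the peak list of 1 wild-type library (72 h) was used. Per the submitters' processing notes, Bowtie, MACS and GRCm38 (mm10) were used. For the control library, pooling, parameters and versions nothing is stated in those notes. The authors deposited 3373 peaks with a start, an end and a score per peak, whose scale the file does not state. No depth is given, so no precision in reads can be stated, and intervals are exact (Clopper-Pearson) 95% binomial ones that treat genes as independent.

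Starts were shifted to count from 1. Gene ends, names and biotypes came from a RefSeq table of GRCm38.p6, and all 9 symbols matched. Promoter windows matched 12 of the 15 family genes. Shares, widths and CG counts were computed with Python 3.11.15, pandas 2.3.3, numpy 2.4.6 and SciPy 1.17.1, and the overlap step was tested on simulated data. Named genes are the 9 members, the 6 other family genes, the 21 partner genes and any gene within 2.5 kb of a member peak. The members and lists were chosen with earlier results of these data known, so none is independent evidence. The intervals given for them therefore measure no sampling error. Some genes of the lists are not reported here. Genes flanking the members, other zinc finger genes and SET-domain genes were added later. Alternatives varied the distance, the score minimum and the joining distance.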

Additional observations from a re-analysis of the deposited data

How the results depend on the processing

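The counts of marked genes were 7 of 9 members, 1 of 6 other family genes and 9 of 21 partners. These counts kept their values with peaks overlapping the gene body, within 1 kb and within 5 kb. They also kept them with at least double the lowest score (300.67), and with scores at or above the median (572). The 7 marked members could not drop out, since the main peak of each overlaps the gene and scores at least 2022. Their unmoved count therefore adds little. The background of 2833 protein-coding genes with a peak was 1567 (7.24%) with scores at or above the median, where 1687 peaks remained by construction. The number of member peaks at a gene end, 13 of 16, was 8 by the midpoint of the peak and 10 within 1 kb. Of 142 alternative values, 131 stayed within 1.5 times the main value and 11 moved. The 131 include the values of Prdm2 and Prdm4, which were 0 at every setting and so add little. Of the moved values, 9 concern single genes, among them the number of peaks at Prdm1 (3, against 1 with scores at or above the median) and the widest domain at Prdm13 (6564 bp, against 13092 bp with peaks within 5 kb joined). The planned description of proteins was not run because no protein sequences were used here. No paired analysis was possible because each group has 1 library and only the wild-type list was used. The unknown depth limits what the lack of a peak can show.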

Other observations

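The wider relatives of the Prdm genes carried few Suz12 peaks. Of 366 zinc finger genes named Zfp with a number, outside the Prdm family, 24 had a peak within 2.5 kb (6.56%, exact 95% interval 4.25 to 9.6), against 13.1% of all protein-coding genes. Among these 24, 1 had a score of at least 3100, Zfp316, with a peak of 4620 bp, and the median widest peak was 1996 bp. Zfp423, a factor of neural and fat cell precursors, had a peak of 3106 bp, and Zfp536 had 3 peaks. Zfp genes lie in clusters and share neighbours, and the peak of 3237 bp counted for Zfp784 and for Zfp865 is of the same width and score at both.

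Of 34 genes for SET-domain methyltransferases, chosen by symbol (Setd, Setdb, Kmt, Smyd, Nsd, Suv39h, Ehmt, Ezh, Ash1l and Setmar), 0 had a peak (exact 95% interval up to 10.3%). They include Ezh1 and Ezh2, the catalytic subunits of Polycomb Repressive Complex 2, and Smyd1, a factor of heart and skeletal muscle. Both sets were chosen after the peaks of the Prdm genes were seen, and no test of the difference was made.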
